A study of Mus musculus with 18 samples.

Results

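The V segments of the mouse immunoglobulin kappa light chain, the Igkv genes, were examined in spleen RNA of 18 libraries. Members were all reference genes whose symbol begins with Igkv and whose mean level over the libraries was above 0, which gave 148 of the 47729 reference genes of the tables. The tables listed 160 such genes, and the other 12 were at 0 in every library. By the GENCODE gene types, 100 members were V genes and 48 were V pseudogenes, and no V gene was among the 12 genes at 0. The least abundant members were pseudogenes: Igkv12-66 averaged 4.4e-07 FPKM and Igkv4-65 5e-07 FPKM, just above the rule's limit.

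The study tested a cationic liposome-polymer carrier (LPPC) loaded with dendritic cell membrane proteins (MP) and with antibodies to a costimulatory or a coinhibitory receptor. LMA denotes 6 libraries from mice treated with LPPC/MP carrying an antibody to CD28, an activating receptor of T cells. LMS denotes 6 libraries with LPPC/MP carrying an antibody to CD152 (CTLA4), an inhibitory receptor of T cells, LM 3 libraries with LPPC/MP alone and N 3 libraries from untreated mice. The labels give female C57BL/6J mice and splenocytes for every library, with an age of 4 to 6 weeks, and LPPC/MP is shared by LMA, LMS and LM. By the study, antibody complexes were given 1 or 2 times after LPPC/MP, so LMA and LMS each pool mice treated once and mice treated repeatedly, and the labels do not say which library is which. No source states that each library came from a separate animal, so p-values measure the spread between libraries, which may be technical.

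A kappa chain is assembled in a developing B cell, when the RAG recombinase joins a V segment to one of the Igkj joining segments upstream of the constant gene Igkc. A mature B cell normally expresses a single productive light chain, so the share of kappa RNA that carries each V segment describes the mix of B cells and plasma cells, weighted by how much light chain RNA each makes. Plasma cells make far more of it per cell than resting B cells. In bulk RNA, fewer B cells and less kappa RNA per cell cannot be told apart.

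The members lay on chromosome 6 between 67555497 and 70704177 (GRCm38), in 20 families, with 67 on the plus strand and 81 on the minus strand. All 148 had the coordinates of GENCODE M21. Levels are in FPKM, fragments normalised to gene length and to the fragments of the library, and the Igkv total is the sum over the members in a library. The share of a segment is its FPKM as a percentage of that total.

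The segments on which the results turn are given with the last 290 coding bases of the germline V exon, 5′ to 3′ on the coding strand, from the GENCODE M21 transcripts (GRCm38). Capitals mark the stretch from the conserved cysteine codon of framework 3 to the end of the segment, which is the germline start of complementarity-determining region 3 (CDR3), the part that varies most with V to J joining. Igkv12-89 is shown because it was called in 4 of the 6 comparisons, and Igkv12-38 and Igkv12-44 as members of its family, of which Igkv12-38 was called in a single comparison. The remaining segments are among those with the largest shares.
Igkv12-89 (chr6:68834846-68835135, minus strand): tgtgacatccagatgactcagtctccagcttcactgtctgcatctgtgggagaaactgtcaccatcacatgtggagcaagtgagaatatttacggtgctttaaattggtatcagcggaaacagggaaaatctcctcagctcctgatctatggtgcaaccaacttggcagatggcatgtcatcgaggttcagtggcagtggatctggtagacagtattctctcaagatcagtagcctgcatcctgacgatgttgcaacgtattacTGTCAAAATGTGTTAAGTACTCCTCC
Igkv12-38 (chr6:69943186-69943475, minus strand): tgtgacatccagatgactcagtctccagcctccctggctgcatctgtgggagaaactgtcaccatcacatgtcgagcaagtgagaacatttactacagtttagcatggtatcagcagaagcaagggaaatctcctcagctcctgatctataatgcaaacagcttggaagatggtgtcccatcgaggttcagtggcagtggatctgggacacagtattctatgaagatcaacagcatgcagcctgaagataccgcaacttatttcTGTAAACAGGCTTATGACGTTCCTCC
Igkv12-44 (chr6:69814631-69814920, minus strand): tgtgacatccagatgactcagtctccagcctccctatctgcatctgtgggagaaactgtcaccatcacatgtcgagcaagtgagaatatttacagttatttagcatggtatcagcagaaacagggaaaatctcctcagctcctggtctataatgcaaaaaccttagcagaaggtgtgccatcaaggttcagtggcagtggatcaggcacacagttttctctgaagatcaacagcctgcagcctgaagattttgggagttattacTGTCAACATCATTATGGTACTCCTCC
Igkv1-117 (chr6:68121538-68121827, plus strand): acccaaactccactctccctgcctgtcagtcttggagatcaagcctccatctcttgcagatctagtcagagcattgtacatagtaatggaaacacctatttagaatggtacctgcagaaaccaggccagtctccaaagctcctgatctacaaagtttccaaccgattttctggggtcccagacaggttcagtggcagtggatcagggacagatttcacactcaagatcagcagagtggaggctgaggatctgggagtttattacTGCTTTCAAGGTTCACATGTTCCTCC
Igkv1-110 (chr6:68270978-68271267, plus strand): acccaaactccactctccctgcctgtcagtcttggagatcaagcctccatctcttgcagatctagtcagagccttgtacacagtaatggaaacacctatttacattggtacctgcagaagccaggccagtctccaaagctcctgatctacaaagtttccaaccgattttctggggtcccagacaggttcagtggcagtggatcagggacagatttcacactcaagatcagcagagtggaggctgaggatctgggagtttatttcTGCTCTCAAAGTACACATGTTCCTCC
Igkv1-135 (chr6:67610219-67610508, plus strand): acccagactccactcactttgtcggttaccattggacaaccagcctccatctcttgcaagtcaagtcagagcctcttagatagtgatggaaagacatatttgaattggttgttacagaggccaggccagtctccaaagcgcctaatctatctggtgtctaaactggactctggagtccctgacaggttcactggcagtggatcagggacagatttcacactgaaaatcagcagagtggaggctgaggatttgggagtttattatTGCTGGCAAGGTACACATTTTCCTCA
Igkv16-104 (chr6:68425783-68426072, plus strand): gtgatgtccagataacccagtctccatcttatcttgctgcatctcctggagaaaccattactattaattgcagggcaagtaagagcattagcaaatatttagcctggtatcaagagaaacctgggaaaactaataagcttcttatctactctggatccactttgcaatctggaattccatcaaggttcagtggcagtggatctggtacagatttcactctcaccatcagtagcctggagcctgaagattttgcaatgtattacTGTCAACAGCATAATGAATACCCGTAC

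The coding sequences of the 100 V genes ran from 338 to 371 bases. Igkv12-89 was 83.6% identical to Igkv12-44 and 81.3% identical to Igkv12-38 in coding sequence, and its nearest segment of all was Igkv12-46 at 84.4%. Igkv16-104 stood further apart, with 73.1% identity to its nearest segment. Igkv1-117 and Igkv1-110 were 97.2% identical, with 10 edits between them. In all, 47 of the 100 V genes had a neighbour of at least 95% identity. How the authors assigned reads that fit several segments is not given in the sources used here, so the split between such neighbours is uncertain.

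Several libraries stood apart from the rest of their group. Eif2s3y, a Y-linked gene, was at 31.0 to 43.0 FPKM in 14 libraries labelled female and was listed at 0 in LMS 2, LMS 5, N 1 and N 2, where Xist stood at 48.1 to 59.9 FPKM. Of 6 macrophage genes, Lyz2, Csf1r, Cd68 and Adgre1 were higher in LMS 1, 3, 4 and 6 and N 3 than in LMS 2, LMS 5, N 1 and N 2, as with Lyz2 at 2589 to 2888 FPKM against 267 to 307 FPKM, and the complement genes C1qa and C1qb were lower, as with C1qa at 1.48 to 16.3 FPKM against 61.3 to 68.9 FPKM. Whether labels were exchanged or libraries of separate experiments were combined was not tested, and every value over LMS or N as a group covers both kinds of library. For this reason, the segment calls and some differences in per-library measures are given again in sets from which one kind or the other was removed. The kinds were N 1, N 2, LMS 2 and LMS 5 as one, and N 3 with LMS 1, 3, 4 and 6 as the other. The LM and LMA libraries were like neither kind in Lyz2, at 1386 to 1491 FPKM. Their Cd68, at 353 to 402 FPKM, lay above N 3 with LMS 1, 3, 4 and 6 (269 to 302 FPKM) and above the others (30.9 to 34.4 FPKM). Their C1qa, at 8.89 to 20.0 FPKM, overlapped that of N 3 with LMS 1, 3, 4 and 6. Removing either kind therefore does not match LMS and N to LM and LMA in composition. Results for the gene lists, families, positions and shares of segments were not fitted again in such sets. Where a gene list gave no call, the spread between the kinds of library within LMS and N limits the test. Between 5.21 and 7.92 gigabases were aligned per library. The members drew 0.315 megabases in N 3, 1.54 to 7.61 megabases in most libraries and 11.9 to 16.0 megabases in LMS 2, LMS 5 and N 2.

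The total RNA over Igkv segments varied more within LMS and N than between any pair of group means. The Igkv total was 2629, 2559, 2919, 2871, 2712 and 2211 FPKM in LMA 1 to 6. It was 629, 6077, 929, 1068, 6151 and 1359 FPKM in LMS 1 to 6. LM libraries 1 to 3 held 1827, 2184 and 1654 FPKM, and N libraries 1 to 3 held 2596, 6684 and 114 FPKM. The LMA and LM libraries were each close together, whereas the N libraries ran from the lowest to the highest total of the series and LMS 2 and LMS 5 stood far above the other LMS libraries. The Igkv segments held 0.031% of the summed FPKM of reference genes in N 3 and 1.49% in N 2.

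The Igkv total of every LMA library lay above that of every LM library. It averaged 2650 ± 256 FPKM in LMA (SD, n = 6) and 1888 ± 270 FPKM in LM (SD, n = 3). The difference was 0.49 on the log2 scale (two-sided exact permutation test, p = 0.0238, the smallest that 6 against 3 allows), and it did not pass the threshold after Benjamini-Hochberg adjustment over the 18 tests of per-library measures (adjusted p = 0.0714, exact permutation test). The other comparisons of the total gave larger p-values. The difference was 1.07 for LMA against N (p = 0.571), 0.58 for LM against N (p = 1), 0.50 for LMS against N (p = 0.738), -0.08 for LMS against LM (p = 0.952) and 0.57 for LMA against LMS (p = 0.359), all by the exact permutation test. The test of 3 against 3 libraries cannot go below 0.1. Without N 3 and LMS 1, 3, 4 and 6 the difference of LMA against LMS turned to -1.21 and that of LMA against N to -0.66. Without N 1, N 2, LMS 2 and LMS 5 they were 1.46 and 4.53.

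Igkc, which encodes the constant region shared by all kappa chains, followed the V segments. The Igkv total was 0.995 to 1.02 times Igkc in LMA, 0.930 to 1.01 times in LMS, 0.914 to 0.949 times in LM and 0.904 to 0.975 times in N. Thus V and constant region RNA moved together over a range of totals from 114 to 6684 FPKM. Set against Cd79b, a signalling subunit of the B cell receptor, the libraries fell differently. The Igkv total per Cd79b was 44.7 to 60.8 in LMA, 16.6 to 20.4 in LMS, 31.9 to 33.0 in LM and 7.62, 22.8 and 17.4 in N 1 to 3. LMS 2 and LMS 5, at 19.1 and 20.4, lay beside the other LMS libraries on this ratio although their totals did not, and neither LMA nor LMS overlapped LM. These ratios are descriptions and were not tested. Cd79b was the only B cell gene set under the Igkv total, and the B cell genes did not all keep proportion to it. In LMS 1 and LMS 2, Cd79b was at 35.5 and 318 FPKM and Cd79a at 47.5 and 371 FPKM. Pax5 was at 2.85 and 62.1 FPKM and Cr2 at 3.61 and 75.7 FPKM in the same libraries. Whether the groups would separate with another B cell gene was not tested.

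**Figure D1:**
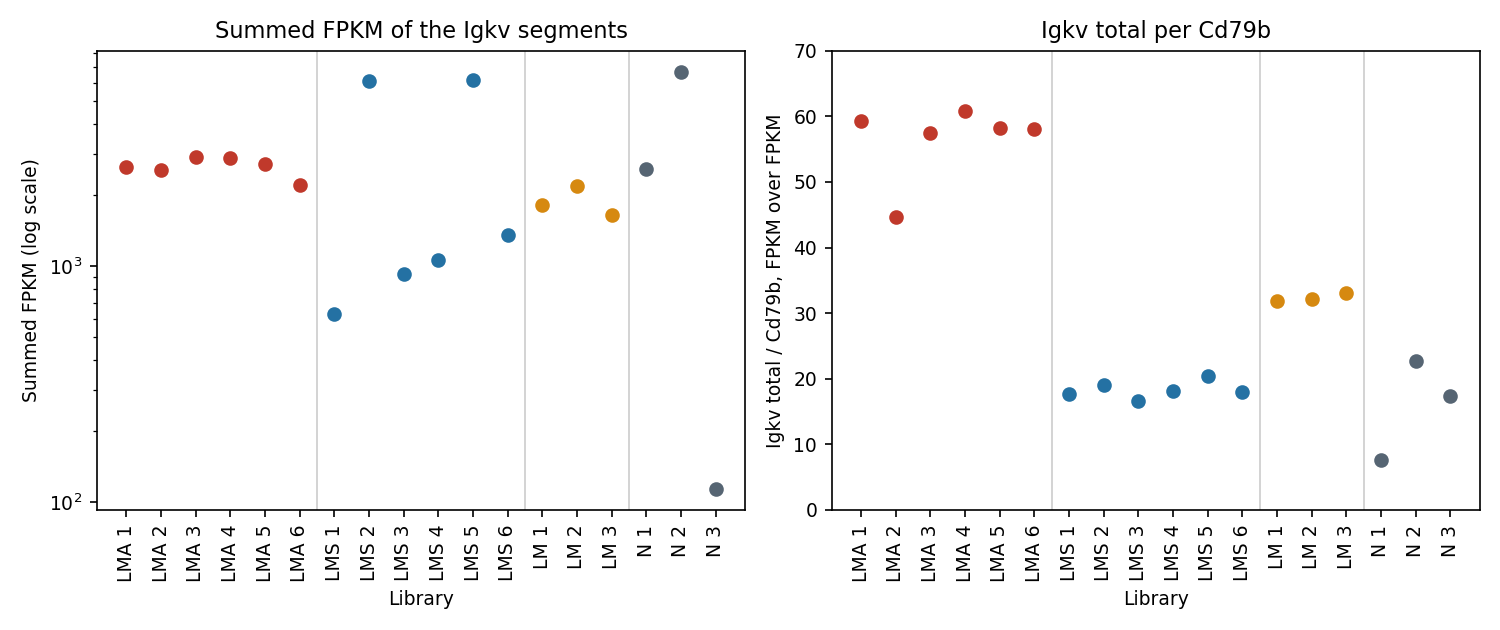
Summed FPKM of the 148 Igkv segments on a log scale (left) and the Igkv total divided by the FPKM of Cd79b (right) in each of the 18 libraries, 1 point per library and 1 colour per group. LMS and N totals are split, from 629 to 6151 and from 114 to 6684 FPKM, whereas the ratio to Cd79b separates LMA (44.7 to 60.8), LM (31.9 to 33.0) and LMS (16.6 to 20.4). Ratios to other B cell genes are not shown.

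Of 8 plasma cell genes, 1 was called by limma, Sdc1, a surface proteoglycan of plasma cells that other cell types also carry. Sdc1 was at 11.4 to 13.3 FPKM in LMA, 4.41 to 5.48 FPKM in LMS, 9.92 to 11.6 FPKM in LM and 2.26 to 5.50 FPKM in N. It was higher in LMA than in N (log2 fold change 1.54 ± 0.17 SE, limma adjusted p = 7e-06), in LM than in N (1.40 ± 0.19, adjusted p = 1.3e-04) and in LMA than in LMS (1.23 ± 0.14, adjusted p = 6e-06), and lower in LMS than in LM (-1.08 ± 0.17, adjusted p = 2.6e-04). The list as a whole did not follow it: 2 of the 8 genes had a positive fold change in LM against N (median -0.08), 5 in LMA against N (0.07), 5 in LMA against LMS (0.13) and 5 in LMS against LM (0.08). The summed plasma cell list ranged from 303 to 382 FPKM in LMA, 214 to 852 in LMS, 272 to 361 in LM and 139 to 925 in N. The summed list of 10 B cell genes ranged from 210 to 320 FPKM in LMA, 151 to 1493 in LMS, 245 to 345 in LM and 30.0 to 1896 in N. None of the 10 B cell genes was called by limma in any comparison. Their part in the Igkv levels was not tested.

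The constant and joining genes of the kappa locus and the lambda genes did not pass the test in any of the 6 comparisons. None of Igkc and Igkj1 to Igkj5 was called by limma (6 of 6 tested), nor any of the lambda genes Iglc1, Iglc2, Iglc3, Iglv1, Iglv2 and Iglv3, and none of them had an unadjusted p below 0.05. Igkj1 and Igkj2 led the joining segments with 35.1 to 38.9% and 24.7 to 34.5% of their summed FPKM, followed by Igkj5 (14.0 to 23.3%) and Igkj4 (12.2 to 15.7%). Igkj3, which is not used in functional mouse kappa chains, held 0.365 to 3.13%. Its largest shares were in N 1, LMS 2 and LMS 5, at 3.13, 2.01 and 1.76%. The Igkv total was 8.28 to 10.7 times the summed lambda constant genes in LMA, 4.15 to 5.75 times in LMS, 6.62 to 7.16 times in LM and 3.62 to 5.76 times in N.

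Genes of recombination and of pre-B cells were low, apart from Vpreb3. Rag1 and Rag2, the recombinase, did not exceed 0.134 and 0.0428 FPKM in any library. Dntt, Vpreb1 and Igll1 did not reach the mean of 0.5 FPKM needed for the test, although Dntt stood at 1.71 FPKM in N 1. Vpreb3 was tested and not called in any comparison. Pou2f1, which encodes the ubiquitous octamer-binding factor, was lower in LMA than in N (log2 fold change -0.70 ± 0.16 SE, limma adjusted p = 0.00371), in LM than in N (-0.54 ± 0.18, adjusted p = 0.0479) and in LMA than in LMS (-0.58 ± 0.13, adjusted p = 0.00293). Pou2f2 and its coactivator Pou2af1, which are typical of B cells, were not called by limma.

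Most Igkv RNA was spread over many segments. The 12 segments with the largest mean share held 36.0% of the total on average, and 17 to 19 segments were needed for 50% of it in every library. The largest share of a segment in any library was 5.47%, that of Igkv1-117 in N 1. Of the 100 V genes, 86 were above 0 in all 18 libraries, and 13 were listed at 0 in N 3, the library with the fewest bases aligned to the segments, against 1 to 4 elsewhere. Pseudogenes held 0.081 to 0.488% of the total.

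The highest segment differed by library. It was Igkv1-135 in LMA 1, 2, 3, 4 and 6 and in LM 3, Igkv16-104 in LMA 5 and Igkv12-89 in LM 1 and LM 2. In LMS and N it was Igkv1-117 or Igkv1-110 in all 9 libraries, which are 97.2% identical in coding sequence.

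Some leading segments had larger and others smaller shares in LMA and LM than in LMS. Igkv1-135 took 4.33 to 4.84% in LMA, 3.24 to 3.75% in LMS, 4.22 to 4.76% in LM and 3.21 to 4.63% in N. Igkv16-104 took 3.98 to 4.57% in LMA, 2.61 to 2.98% in LMS, 3.68 to 3.96% in LM and 1.54 to 2.85% in N. Igkv5-39, Igkv4-59, Igkv6-15 and Igkv4-53 also lay higher in LMA than in LMS, with mean shares of 3.18, 3.18, 2.75 and 2.79% in LMA, 2.54, 2.47, 2.28 and 2.46% in LMS, 2.96, 2.99, 2.71 and 2.78% in LM and 2.42, 2.45, 3.16 and 2.04% in N, where Igkv6-15 was above LMA in N 1 and N 3. The opposite held for Igkv19-93, with 1.52 to 1.90% in LMA, 2.69 to 3.35% in LMS, 1.69 to 1.90% in LM and 2.39 to 3.09% in N. Igkv10-96 took 2.60 to 2.85% in LMA, 3.31 to 4.10% in LMS, 2.95 to 3.16% in LM and 3.25 to 4.65% in N. Igkv8-24 took 1.62 to 1.91% in LMA and 1.88 to 2.78% in LMS, and these ranges overlapped. Igkv1-117 and Igkv1-110 overlapped between all 4 groups, with group means of 4.06 to 4.45% and 3.43 to 4.40%. Shares were not tested segment by segment.

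**Figure D2:**
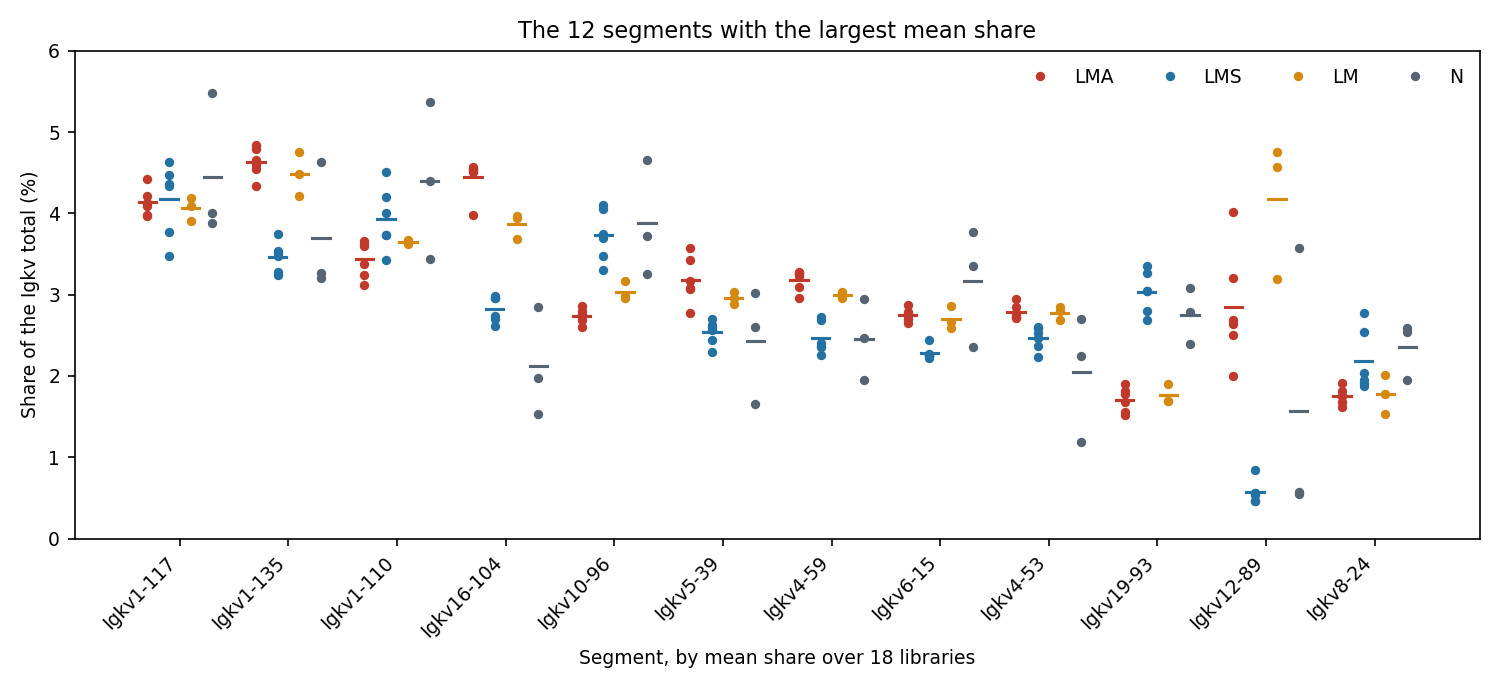
Share of the Igkv total (%) held by each of the 12 segments with the largest mean share, 1 point per library and a bar at each group mean, in the order LMA, LMS, LM and N within a segment. Igkv16-104 and Igkv1-135 lie higher in LMA and LM than in LMS, Igkv19-93 and Igkv10-96 lie lower, and Igkv12-89 spans 0.457 to 4.76%.

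Whole families showed the same 2 directions. The family Igkv4, with 33 members the largest, held 20.7 ± 0.286% in LMA, 20.8 ± 1.08% in LMS, 20.4 ± 0.346% in LM and 18.7 ± 2.84% in N (mean ± SD). Igkv3 held 10.1 ± 0.379% in LMA, 7.21 ± 0.909% in LMS, 9.59 ± 0.331% in LM and 7.05 ± 1.19% in N. Igkv8 held 7.93 ± 0.134% in LMA, 10.7 ± 0.370% in LMS, 8.04 ± 0.276% in LM and 10.1 ± 0.305% in N, and Igkv2 held 1.61 ± 0.0874% in LMA, 3.30 ± 0.357% in LMS, 1.74 ± 0.0432% in LM and 2.97 ± 0.460% in N. The differences in Igkv8 and Igkv2 were larger than the spread within the groups between LMA and LMS, whereas those in Igkv4 were not.

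By position along the locus the shares differed less. The 50 members within 1000 kb of Igkj1 held 36.8 to 39.0% in LMA, 37.4 to 39.6% in LMS, 36.3 to 37.2% in LM and 37.6 to 39.1% in N. The 52 members between 1000 and 2000 kb held 25.8 to 27.9% in LMA, 25.9 to 28.5% in LMS, 27.5 to 28.5% in LM and 20.4, 26.6 and 30.2% in N 1 to 3. The 46 members beyond 2000 kb held 35.1 to 35.7% in LMA, 33.9 to 35.0% in LMS, 34.3 to 35.4% in LM and 32.2 to 40.5% in N, where N 1 held the largest share, and every LMA library lay above every LMS library. Across the 100 V genes, Spearman's rho between share and distance lay between -0.02 and 0.02 in every library, as a description over genes that share a library. The 67 members on the plus strand held 43.5 to 44.9% in LMA, 39.2 to 41.6% in LMS, 42.2 to 43.8% in LM and 37.7 to 44.3% in N.

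**Figure D3:**
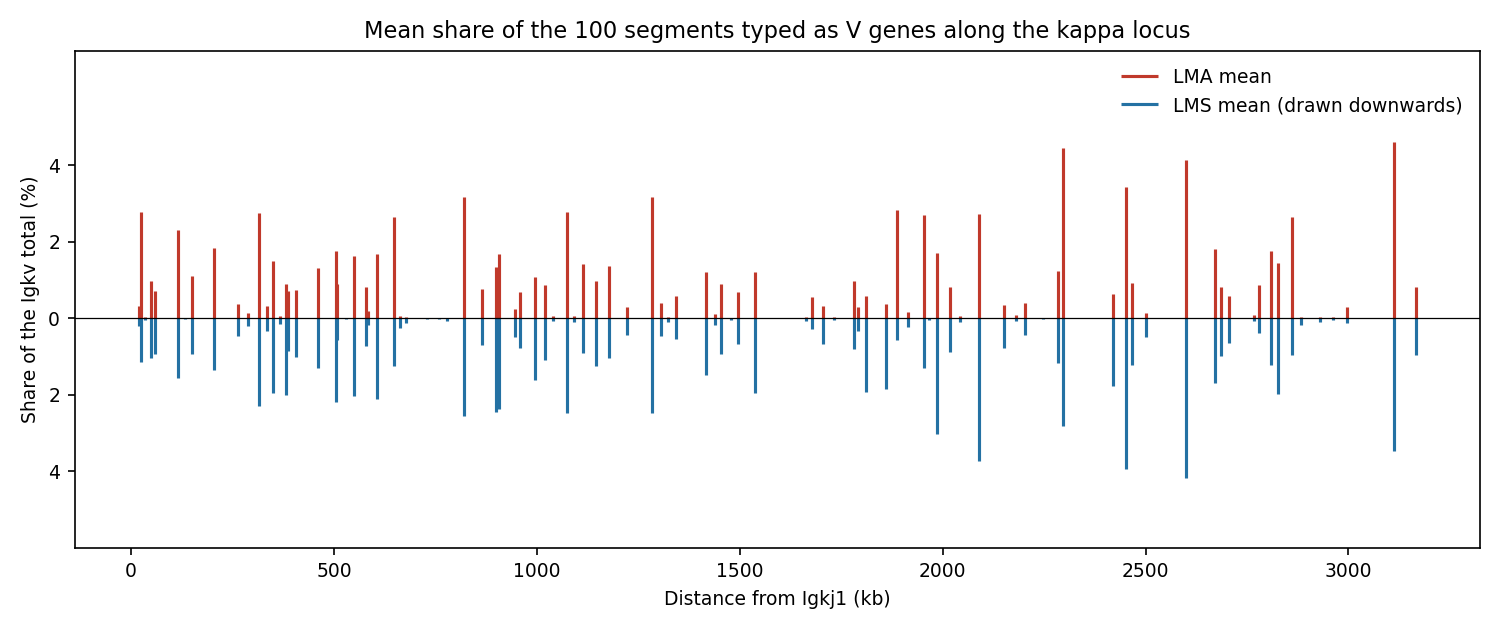
Mean share of the Igkv total (%) of the 100 segments typed as V genes against their distance from Igkj1 in kb, with LMA drawn upwards and LMS downwards. Large and small shares lie next to each other along the whole locus in both groups.

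The libraries of LMS and N did not group by label in their use of segments. As a measure, the smaller of the 2 shares of each segment was summed for a pair of libraries, so that 100% means the same profile. Among the LMA and LM libraries, 36 pairs overlapped by 92.5 to 97.1%. LMS 1, 3, 4 and 6 overlapped by 93.2 to 95.4% with each other, but by 84.2 to 85.1% with LMS 2, LMS 5 and N 2. These 3 libraries overlapped by 96.4 to 97.1%, and the library nearest to LMS 2 and to LMS 5 was N 2. N 3 was nearest to LMS 1, 3, 4 and 6 at 87.3 to 88.3%, and N 1 was far from all others at 75.5 to 79.3%, with 76.2 to 76.7% for LMS 2, LMS 5 and N 2 and 77.5 to 79.3% for LMS 1, 3, 4 and 6. Hence the 3 untreated libraries overlapped by only 76.1 to 82.5% with each other.

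**Figure D4:**
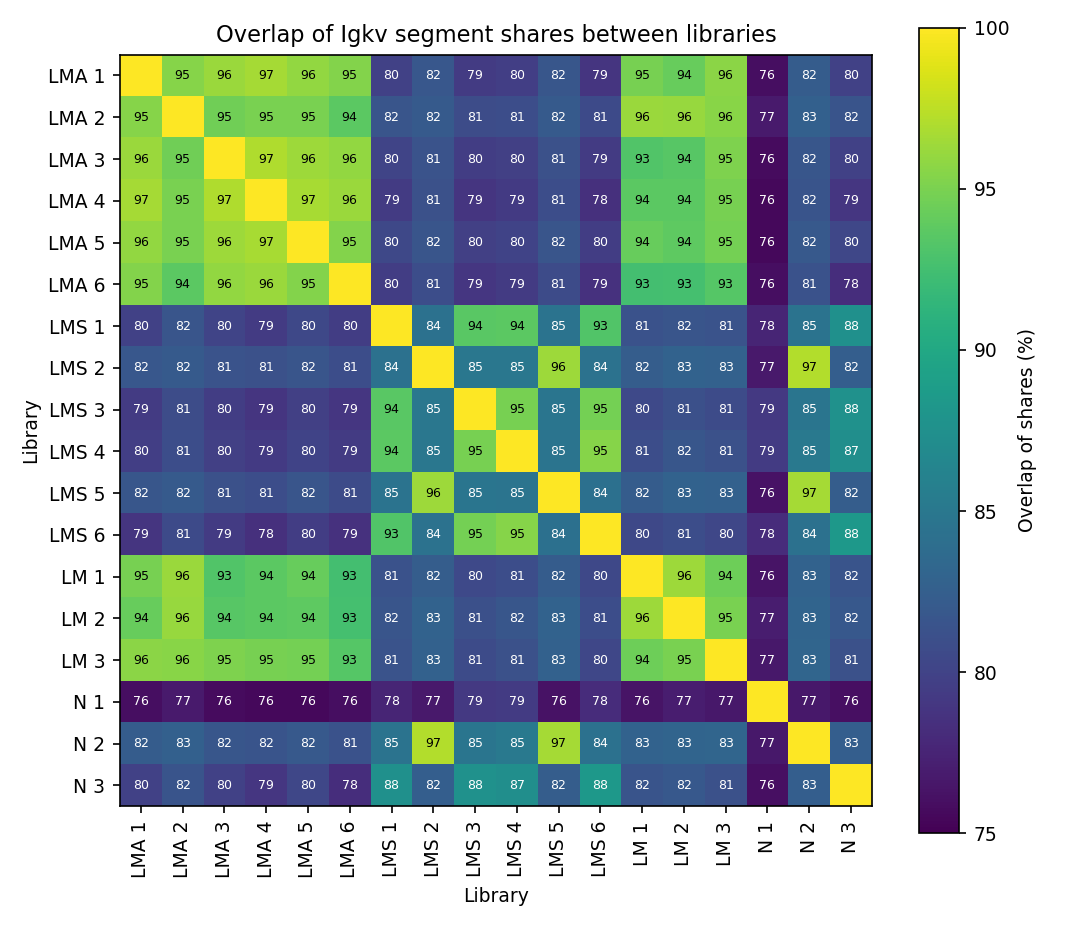
Overlap of Igkv shares (%) between each pair of the 18 libraries, where 100% is the same profile, with the libraries in the order LMA, LMS, LM and N on both axes. LMA and LM form a block at 92.5 to 97.1%, LMS 1, 3, 4 and 6 another at 93.2 to 95.4%, LMS 2, LMS 5 and N 2 one at 96.4 to 97.1%, and N 1 at 75.5 to 79.3% with every other library.

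The overlap of profiles was set against counting error. With 300 aligned bases taken as 1 fragment, the chi-square per degree of freedom over the members was 0.946 to 4.66 among LM and LMA, 0.939 to 1.24 among LMS 1, 3, 4 and 6, 1.71 to 1.82 among LMS 2, LMS 5 and N 2, and 11.4 to 25.3 between LMS 1, 3, 4 and 6 and the LM and LMA libraries. N 3, with few aligned bases, differed from the LM and LMA libraries by 2.85 to 4.11, within the range among LM and LMA, and from LMS 1, 3, 4 and 6 by 1.65 to 2.45. At the same shares this measure falls with fewer fragments, so it does not show N 3 to be like LM and LMA. The shares of N 3 overlapped theirs by 78.3 to 81.9%. Over all genes other than Igkv the chi-square per degree of freedom was at least 1.52 in every pair, the lowest being LMS 2 with LMS 5. Because its scale rests on the assumed 300 bases per fragment, the measure cannot decide whether any libraries repeat the same RNA. Each library was kept as a sample of its own without a test of this. An example of what set LMS 2, LMS 5 and N 2 apart is Igkv12-44, chosen after its values were seen. It held 3.43, 3.59 and 3.44% in these 3 libraries and 1.35 to 1.94% in the other 15.

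LMA had a less even use of segments than LMS. The effective number of segments, the exponential of the Shannon entropy of the shares, gives the number of equally used segments with the same diversity. It was 58.3, 58.9, 58.3, 58.1, 58.4 and 58.1 in LMA 1 to 6 and 62.9, 63.8, 61.1, 62.2, 63.3 and 62.4 in LMS 1 to 6. It was 59.3, 59.8 and 59.6 in LM 1 to 3 and 59.8, 63.2 and 59.95 in N 1 to 3. Every LMA library lay below every library of the other groups, and every LMS library lay above every LM library. The difference of LMA against LMS was -4.26 (58.3 ± 0.311 in LMA and 62.6 ± 0.939 in LMS, SD, n = 6 each, two-sided exact permutation test, p = 0.00216, adjusted p = 0.039). It was -3.79 against LMS 1, 3, 4 and 6 alone (p = 0.00952) and -5.18 against LMS 2 and LMS 5 alone (p = 0.0714), each the smallest p that an exact permutation test of these numbers allows and neither below 0.05 after adjustment.

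The other comparisons of diversity did not pass the threshold after adjustment. The differences were -1.22 for LMA against LM, -2.65 for LMA against N and 3.04 for LMS against LM (each p = 0.0238 and adjusted p = 0.0714, exact permutation test, with no overlap between the libraries). For LM against N it was -1.44 (p = 0.1) and for LMS against N 1.60 (p = 0.119, exact permutation test). Bases aligned to the members differed between these libraries. The effective number was 63.2 to 63.8 in LMS 2, LMS 5 and N 2 with 11.9 to 16.0 megabases, 58.1 to 58.9 in LMA with 5.67 to 7.61 megabases, 61.1 to 62.9 in LMS 1, 3, 4 and 6 with 1.54 to 3.40 megabases and 59.95 in N 3 with 0.315 megabases. The part of depth in these differences was not tested.

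The 5 highest segments held 19.8 to 20.7% of the total in LMA, 17.5 to 20.0% in LMS, 19.5 to 20.8% in LM and 23.9, 17.7 and 18.6% in N 1 to 3. The difference of LMA against LMS was 1.53 percentage points (exact permutation p = 0.0108, adjusted p = 0.0714), and that of LMS against LM -1.64 (p = 0.0476, adjusted p = 0.122). The remaining 4 comparisons had differences of -1.49 to 0.15 percentage points and adjusted p of 0.740 or more by the exact permutation test.

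Segment by segment, limma on log2(FPKM + 0.5) was fitted to the 14395 reference genes that averaged 0.5 FPKM or more. Of the 148 members 99 entered the fit, 95 V genes and 4 pseudogenes. With an adjusted p of 0.05 as threshold, 1 member was higher and 0 lower in LM against N (all genes: 8.67% higher, 13.5% lower), 1 higher and 1 lower in LMA against N (13.5% higher, 19.0% lower), 0 in LMS against N (0.00695% higher, 0% lower), 0 in LMA against LM (0% in either direction), 1 lower in LMS against LM (7.16%, against 11.4% higher) and 1 higher in LMA against LMS (10.8%, against 17.3% lower). At an unadjusted p below 0.05, 2, 6, 0, 0, 1 and 7 members passed in these comparisons. The share of all genes at that unadjusted threshold is not given, so these counts are not read as a result about the members. The median log2 fold change of the members was 0.23 in LM against N, 0.66 in LMA against N, 0.28 in LMS against N, 0.44 in LMA against LM, 0.16 in LMS against LM and 0.28 in LMA against LMS, with medians over all genes of -0.08, -0.09, 0.01, 0.00, 0.09 and -0.10.

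Igkv12-89 was the segment called in 4 of the 6 comparisons. Igkv12-89 (ENSMUSG00000076534, chromosome 6, 68834846 to 68835307, minus strand, 1887 kb from Igkj1) was at 84.3, 102.6, 73.2, 77.3, 71.7 and 44.3 FPKM in LMA 1 to 6. It was at 3.54, 28.3, 7.83, 5.96, 32.8 and 6.22 FPKM in LMS 1 to 6, at 86.9, 99.8 and 52.7 FPKM in LM 1 to 3 and at 14.2, 38.0 and 4.08 FPKM in N 1 to 3. Every LMA and LM library lay above every LMS and N library, including LMS 2, LMS 5 and N 2 with their larger Igkv totals.

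The log2 fold change of Igkv12-89 was 2.80 ± 0.54 (SE) in LMA against LMS (limma adjusted p = 9.4e-04), -2.88 ± 0.66 in LMS against LM (adjusted p = 0.00564), 2.43 ± 0.66 in LMA against N (adjusted p = 0.0116) and 2.50 ± 0.77 in LM against N (adjusted p = 0.0294). It was -0.07 ± 0.66 in LMA against LM (limma adjusted p = 1) and -0.38 ± 0.66 in LMS against N (adjusted p = 0.761). The 4 calls held without N 1, N 2, LMS 2 and LMS 5, with log2 fold changes of 3.58, -3.65, 4.01 and 4.08 in the same order (limma adjusted p = 3.1e-08, 2e-07, 2.9e-06 and 5.3e-06), where N was N 3 alone. They also held without N 3 and LMS 1, 3, 4 and 6, at 1.26, -1.33, 1.63 and 1.71 (limma adjusted p = 0.00854, 0.0123, 0.00163 and 0.00278). In neither set were LMS and N matched to LM and LMA in macrophage genes, so treatment and composition cannot be told apart. The call in LM against N was lost without LM 1, LM 2, N 1 or N 3 (limma adjusted p of 0.0666 to 0.0922) and with LM and N alone in the fit (adjusted p = 0.176).

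As a share of the Igkv total, Igkv12-89 took 2.0 to 4.01% in LMA, 0.457 to 0.842% in LMS, 3.19 to 4.76% in LM and 0.547, 0.569 and 3.58% in N 1 to 3. N 3 thus carried it at a share like that of LM and LMA, on the smallest total of the series. In the fit on levels relative to Igkc, an alternative chosen after seeing the data, no member was called in any comparison (all genes: 0.0625% higher and 0.0139% lower in LMA against LMS, 0.0208% higher in LMA against N, and 0% in the others). Igkc ranged from 126 to 7241 FPKM within N, and this spread enters every gene of that fit. Few genes of any kind passed, so the absence of calls is not read as a result about the members. On that scale the log2 fold change of Igkv12-89 was 2.28 ± 0.54 in LMA against LMS (limma adjusted p = 0.23), -2.74 ± 0.66 in LMS against LM (adjusted p = 0.416), 1.46 ± 0.66 in LMA against N (adjusted p = 0.262) and 1.92 ± 0.76 in LM against N (adjusted p = 0.837).

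The list of 5 neutrophil genes (S100a8, S100a9, Ngp, Ltf and Ly6g) moved in the same 4 comparisons. All 5 were called higher in LMA against LMS, LMA against N and LM against N, and lower in LMS against LM. Their summed level was 1884 to 2567 FPKM in LMA, 135 to 442 FPKM in LMS, 1332 to 1556 FPKM in LM and 24.1 to 459 FPKM in N. Its part in the result for Igkv12-89 was not tested.

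**Figure D5:**
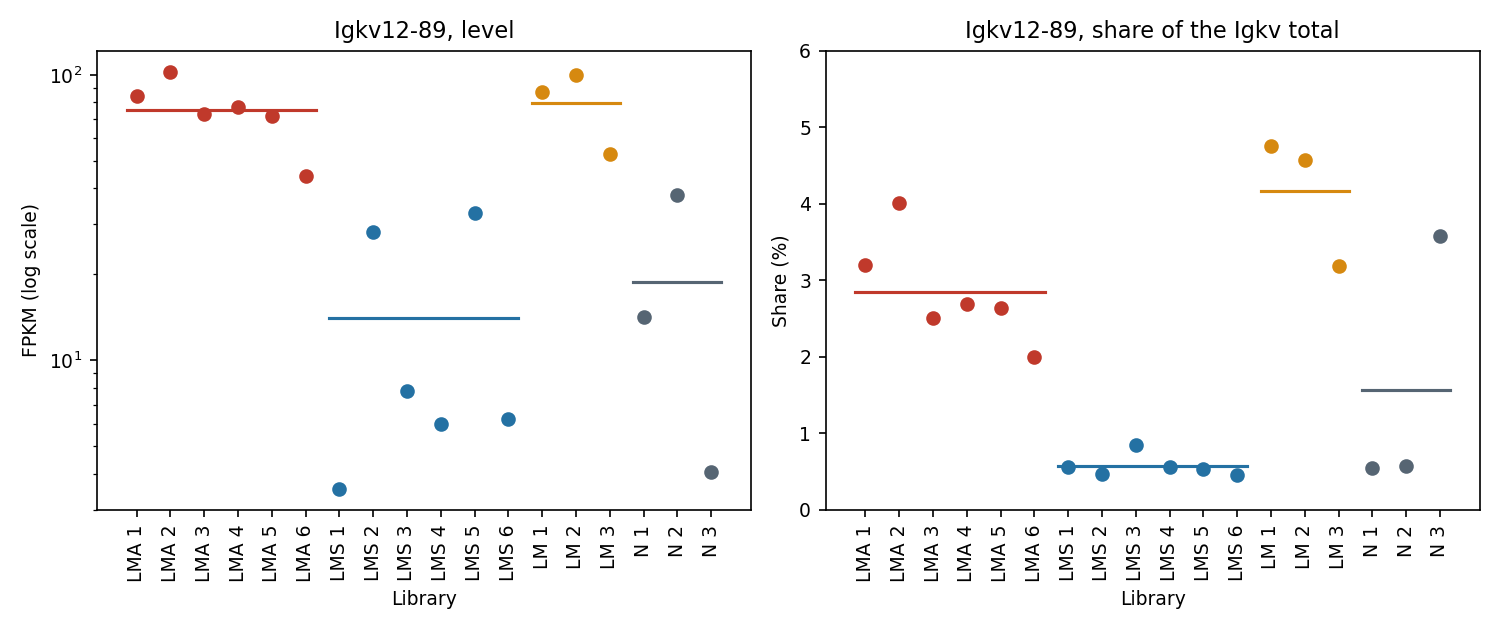
FPKM of Igkv12-89 on a log scale (left) and its share of the Igkv total in % (right) in each library, with a line at each group mean. All LMA and LM libraries lie at 44.3 FPKM or more and all LMS and N libraries at 38.0 FPKM or less, whereas by share N 3 (3.58%) lies among the LMA and LM libraries.

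Igkv12-38 was the other segment called. Igkv12-38 was at 0.270 to 0.694 FPKM in LMA, 0.336 to 2.71 FPKM in LMS, 0.461 to 0.550 FPKM in LM and 2.23, 4.12 and 0.502 FPKM in N 1 to 3. It was lower in LMA than in N (log2 fold change -1.32 ± 0.43, limma adjusted p = 0.0282), although the N 3 value lay within the LMA range. The call was lost without N 1 (adjusted p = 0.112), without N 2 (0.203), without LMA 6 (0.0514) and without N 1, N 2, LMS 2 and LMS 5 (log2 fold change -0.10, limma adjusted p = 0.759), as well as with no filter on low values (0.0606) and relative to Igkc (0.0763). Without N 3 and LMS 1, 3, 4 and 6, Igkv12-38 was lower in LMA against N (-1.93, limma adjusted p = 2.6e-06), LM against N (-1.81, adjusted p = 1.4e-05) and LMA against LMS (-1.71, adjusted p = 7.6e-06), and higher in LMS against LM (1.60, adjusted p = 4.1e-05).

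Of the 12 segments with the largest shares, Igkv12-89 alone was called, and the levels of Igkv16-104 are given as an example of the others. Igkv16-104 was at 118.9, 101.7, 132.6, 129.6, 124.0 and 100.6 FPKM in LMA 1 to 6 and at 16.5, 181.3, 27.5, 28.9, 182.0 and 37.2 FPKM in LMS 1 to 6. It was at 72.1, 80.4 and 65.5 FPKM in LM 1 to 3 and at 39.9, 190.6 and 2.25 FPKM in N 1 to 3. Its log2 fold change in LMA against N was 2.09 ± 0.98 (limma adjusted p = 0.111). LMA and LM did not overlap, whereas LMS and N each held values on both sides of them.

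In LMA against LM, 38 of the 99 members had every LMA library above every LM library and 0 had every LMA library below, while 2.90% of all genes tested did so upwards and 3.63% downwards. Of the 12 leading segments, Igkv16-104 was at 100.6 to 132.6 FPKM in LMA against 65.5 to 80.4 FPKM in LM, and Igkv5-39 at 73.0 to 92.8 against 50.2 to 64.7 FPKM. In the other comparisons the groups did not overlap for 1 member (higher) in LM against N, LMA against N and LMA against LMS, where 13.5%, 12% and 11.6% of all genes were so, while 18.2%, 16.4% and 15.5% lay lower in the first-named group and no member did. In LMS against LM 2 members lay higher and 1 lower, against 17.3% and 12.7% of all genes, and in LMS against N there were 0, against 0.146% and 0.340%. With LMA and LM alone in the fit, limma called 19 members higher and 0 lower (0.549% and 0.327% of all genes). The Igkv total was itself higher in every LMA library than in every LM library, and the members share it. The 38 and the 19 members are therefore not separate observations beside that difference in the total. Relative to Igkc, in the fit of all groups, 0 members and 0% of all genes were called.

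The counts of calls turned with the libraries kept. Without N 1, N 2, LMS 2 and LMS 5, 75 members were higher and 3 lower in LMA against LMS (27.0% and 40.4% of all genes), 2 higher and 62 lower in LMS against LM (36.7% and 25.9%), 91 higher and 0 lower in LMA against N (24.8% and 31.6%), 87 higher and 0 lower in LM against N (24.7% and 30.2%) and 77 higher and 0 lower in LMS against N (5.93% and 0.236%), with N as a single library assumed to vary like the others. Without N 3 and LMS 1, 3, 4 and 6, 1 member was higher and 80 lower in LMA against LMS (35.1% and 39.9%), 92 higher and 1 lower in LMS against LM (38.2% and 33.9%), 1 higher and 55 lower in LMA against N (35.0% and 41.1%) and 1 higher and 67 lower in LM against N (33.7% and 39.2%). Igkv12-89 was called in the same direction in both sets in each of these 4 comparisons, and was the only such member in LMA against N and LM against N. In LMA against LMS, Igkv1-88, Igkv2-112 and Igkv4-86 were also called lower in both sets, and in LMS against LM, Igkv1-88 and Igkv4-86 higher in both, 3 segments named after their values were seen. Over all libraries none of these 3 was called (limma adjusted p of 0.104 to 0.295). In LMA against LM, 1 member was higher in the first set (0.153% of all genes higher, 0.340% lower) and 0 were called in the second (0.0139% and 0.0417%). In LMS against N, 0 were called in the second set (0.0139% and 0.00695%).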

How the data were processed

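RNA of 18 mouse spleen libraries (LMA 6, LMS 6, LM 3, N 3) was sequenced on an Illumina NovaSeq. The authors deposited 1 table per library with FPKM, a TPM column and mean coverage per gene. The submitters' processing notes name mm10 and GATK 4.2, while for the aligner and quantifier the tools are not given in the sources used. The TPM column deposited by the authors, treated as a score, served as an alternative, and the coverage the authors gave was multiplied by gene length to estimate aligned bases. These files hold no counts, so counting error was approximated with 300 aligned bases per fragment.

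Genes that averaged 0.5 FPKM or more (14395 of 47729) were tested on log2(FPKM + 0.5), which understates changes of low genes, with limma 3.58.1 (R 4.3.3, trended variances, 1 fit of the 4 groups) and Benjamini-Hochberg adjustment over all genes of a comparison, threshold 0.05. For per-library measures, exact permutation tests were used, two-sided (scipy 1.17.1), adjusted over 18 tests. The scripts were tested on simulated data. Segments named were the 12 with the largest mean share, the highest of each library and those called, and lists of kappa, lambda, recombination, octamer factor and cell type genes. The members and lists were chosen with earlier results of these data known. Alternatives were other pseudocounts, filters, scalings, weights, measures and sets of libraries. Treatment text in the labels that describes another experiment was not used.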

Additional observations from a re-analysis of the deposited data

Results flagged for a closer look

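In 70 sets of values, each of 1 group of 6 libraries, 8 had a library far from the others by Dixon's test. Chance alone gives about 1 in 20 for unrelated sets. The sets here share libraries and Igkv values, and LMS holds both kinds of library, so the 8 cannot be read as an excess over chance. Of the 8, 4 concerned LMA 2. Its effective number of segments was 58.9, against 58.1 to 58.4 in the other LMA libraries, its Igkv total per Cd79b 44.7 against 57.4 to 60.8, its Igkv total per lambda constant RNA 8.28 against 10.2 to 10.7, and its share of Igkv16-104 3.98% against 4.51 to 4.57%. LMA 6 stood apart in the level of Igkv1-110, at 68.9 FPKM against 93.6 to 97.6 FPKM, and of Igkv10-96, at 57.5 FPKM against 73.0 to 80.3 FPKM. In LMS, Igkv6-15 held 2.45% in LMS 4 against 2.22 to 2.27% in the others, and Igkv12-89 held 0.842% in LMS 3 against 0.457 to 0.562%.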

How the results depend on the processing

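The counts of segments called changed most with the libraries and their weights. Without N 1, N 2, LMS 2 and LMS 5 they were 87 (LM against N), 91 (LMA against N), 77 (LMS against N), 1 (LMA against LM), 64 (LMS against LM) and 78 (LMA against LMS). With N 3 and LMS 1, 3, 4 and 6 left out, the counts were 68, 56, 93 and 81 in LM against N, LMA against N, LMS against LM and LMA against LMS. With sample weights they were 95, 84, 96, 58 and 81 in LM against N, LMA against N, LMS against N, LMS against LM and LMA against LMS. With only the groups compared in the fit they were 0 in LM against N, 19 in LMA against LM, 2 in LMS against LM and 8 in LMA against LMS. With no filter on low values the count was 0 in LM against N, and relative to Igkc, chosen after seeing the data, it was 0 in all 6 comparisons. The cause was not tested. Shares over all genes stand above for the sets of libraries, for LMA and LM alone and relative to Igkc. For the other settings, and for the counts with libraries left out in turn, such shares are not given. Those counts are therefore not read as particular to the segments. Leaving out each library in turn gave 0 to 15 calls in LM against N, 1 to 17 in LMA against N, 0 to 9 in LMS against N, 0 to 0 in LMA against LM, 1 to 1 in LMS against LM and 1 to 2 in LMA against LMS.

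Without N 3 and LMS 1, 3, 4 and 6 the log2 difference of the Igkv total was -1.15 in LM against N, -0.66 in LMA against N, 1.70 in LMS against LM and -1.21 in LMA against LMS, and the difference in the share of the 5 highest segments was -0.59 in LM against N and -0.71 in LMA against N. Without N 1, N 2, LMS 2 and LMS 5 that share differed by 0.51 in LMS against N. It differed by 0.25 in LMA against LM and 1.96 in LMA against LMS by aligned bases, by -0.045 in LMA against N among members of at least 1 FPKM, and by 2.50 in LMA against LMS for the 10 highest segments. The effective number in LMA against LMS differed by -3.79 and -5.18 in the 2 sets of libraries, no longer past the threshold. Leaving out each library in turn, it ranged from -4.56 to -4.02. The Igkv total then ranged from -1.15 to 1.79 in LM against N, -0.66 to 2.28 in LMA against N, -1.23 to 1.71 in LMS against N and -0.43 to 0.22 in LMS against LM, and the share of the 5 highest segments from -1.01 to 2.07 in LM against N, -1.13 to 1.96 in LMA against N, -2.65 to 0.43 in LMS against N, -0.49 to 0.17 in LMA against LM and 1.31 to 1.81 in LMA against LMS.

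Of 21 same-numbered pairs of libraries, 12 had a correlation of deviations over 0.1 (range -0.61 to 0.89). LMS 3 with N 3 (0.887) and LMS 2 with N 2 (0.856), each of one kind of library, were highest. LMS 1 with N 1 (-0.611), of different kinds, was lowest. Pairs with different numbers were not compared, so these values cannot decide whether the numbers pair the libraries, and the main fit used no pairing. With the replicate block the counts stayed at 1, 2, 0, 0, 1 and 1 in LM against N, LMA against N, LMS against N, LMA against LM, LMS against LM and LMA against LMS. N 3, with 0.315 megabases on the segments, limits every comparison with N.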
